A study of Mus musculus with 19 samples.

Results

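Complement components, regulators and pentraxins were followed in mouse liver as a fixed list of 32 genes, matched by symbol and Ensembl ID to the table of gene counts. All 32 members were found among 55416 gene IDs, and all 32 passed the low-count filter that left 15570 genes for testing. The list holds the C1 complex (C1qa, C1qb, C1qc, C1ra and C1s1), the lectin pathway (Mbl1, Mbl2, Fcna, Masp1 and Masp2), C4a, C4b, C2 and C3, the alternative pathway (Cfb, Cfd and Cfp) and the terminal pathway (Hc, which is mouse C5, with C6, C8a, C8b, C8g and C9). It also holds the regulators Serping1, C4bp, Cfi, Cd55 and Cd59a, the anaphylatoxin receptors C3ar1 and C5ar1, and the pentraxins Crp and Apcs.

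Complement is a cascade of plasma proteases that coats microbes and damaged cells, releases the anaphylatoxin peptides C3a and C5a and assembles a membrane pore from C5b to C9. Hepatocytes secrete most of its plasma proteins and both short pentraxins, whereas C1q and properdin are made mainly by macrophages and other myeloid cells, and factor D largely by adipocytes. Several of these genes belong to the acute phase response of the liver, in which interleukin-6 (IL-6) acts on hepatocytes through STAT3.

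Poly(A) RNA from liver tissue of C57BL/6 mice was sequenced in 19 libraries. There were 4 libraries of wild-type (WT) mice without injection (normal), 4 of WT and 4 of IL-6 -/- mice given vehicle, and 4 of WT and 3 of IL-6 -/- mice given furosemide, a loop diuretic that produced pre-renal azotemia (PRA), the build-up of nitrogenous waste that follows poor perfusion of the kidney. Injections were intraperitoneal, 2 per mouse and 3 h apart, with 4 mg furosemide each in the PRA groups, and livers were taken 6 h after the earlier injection. IL-6 -/- libraries are called knockout (KO) here. The sources used here give neither age, sex nor how the knockout allele was made, and no KO group without injection was analysed. Since no label states that the replicates are different animals, the p-values measure library-to-library spread only, which may be technical.

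Counts assigned to genes ranged from 32073865 to 74041441 per library. Il6 itself was at 0 to 16 counts in all 19 libraries, which cannot check the genotype labels. The hepatocyte markers Alb, Ttr, Apoa1, Cps1, Serpina1c and Ahsg were abundant in every library. Levels are in CPM, each count scaled to a common library total, after TMM scaling (a correction of library totals for a few very abundant genes). Fold changes come from 1 edgeR quasi-likelihood model of all 19 libraries, with adjusted p at or under 0.05 over all genes as the threshold. They carry the standard error (SE) of the fit, and group means carry the SD over libraries. WT PRA replicate 1 stood apart in the pancreatic gene Ctrb1 (14.2 CPM, at most 0.0451 CPM elsewhere) and the epithelial gene Krt19 (40.9 CPM, at most 3.66 CPM elsewhere). Without it 10 members, in place of the 14 below, passed in WT PRA against vehicle, where calls over all genes fell from 3437 to 2770. The count was also 10 without WT vehicle replicate 2, WT vehicle replicate 4 or WT PRA replicate 4, with 2791, 2977 and 2896 of all genes called.

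In WT livers PRA was accompanied by higher transcripts of 14 of the 32 members and lower transcripts of none, where 9.74% of all genes tested were called higher and 12.3% lower. The 14 were C1qb, C1ra, Mbl1, C4b, Cfp, Hc, C8b, C9, Serping1, C4bp, Cfi, C5ar1, Crp and Apcs. The median log2 fold change of the 32 members was 0.33, against -0.03 for all 15570 genes, and of the 14 only Apcs and C5ar1 rose more than 2-fold. In 14 members, not wholly the same ones, every WT PRA library lay above every WT vehicle library, and in none below, which held for 11.1% and 12.1% of all genes. In KO livers PRA brought none of the 32 past the threshold (median 0.06, with -0.00433 for all genes) in a comparison that called 7.96% of all genes higher and 8.38% lower, 16.3% in all. Without overlap between the KO groups, 2 members were higher and 1 lower, against 11.9% and 13.2% of all genes. No member had an unadjusted p under 0.05 there by edgeR, and DESeq2 and limma-voom called none either. The test of the difference between the responses, the genotype by treatment interaction, called none of the members by edgeR, DESeq2 or limma-voom, where edgeR called 0.475% of all genes, 0.0385% higher and 0.437% lower. By edgeR 6 members, C4b, C9, Serping1, C5ar1, Crp and Apcs, had an unadjusted p under 0.05 in it, all with the smaller value in KO. For counts at unadjusted p, here and below, the share of all genes was not computed, and the shares printed are at adjusted p. Under PRA, 3 members, C4b, Crp and Apcs, were lower in KO than in WT livers and none were higher, against 2.15% and 1.64% of all genes, 3.80% in all. Without overlap, 6 members (Mbl1, Masp2, C4a, C4b, Crp and Apcs) were lower and none higher in KO PRA, against 7.26% and 8.48% of all genes. These comparisons share libraries and are not independent of each other.

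Hepatocytes make most of these transcripts, and the summed level of the 6 hepatocyte markers was 75703 to 86684 CPM in normal, 78366 to 104961 CPM in WT vehicle and 105254 to 113633 CPM in WT PRA libraries, the latter groups narrowly without overlap. Alb made up most of the sum in every library. By itself Alb was at 49663 to 65700 CPM in WT vehicle and 60618 to 66742 CPM in WT PRA libraries, which overlap. In KO libraries Alb was at 66843 to 72648 CPM after vehicle and 75621 to 101237 CPM after PRA, without overlap. The median log2 fold change of the 6 markers in WT PRA against vehicle was 0.22, and 1 of them, Ahsg, was called higher (0.46, edgeR adjusted p = 0.0302). In KO libraries, where no member was called, the sum was 104410.0 to 111415 CPM after vehicle and 116264 to 157851 CPM after PRA, also without overlap, with a median of 0.32 and 1 of 6, Cps1, called higher. The part of the hepatocyte share of the RNA in the members' values was not tested.

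The count of 14 was 8 without WT PRA replicate 2, where calls over all genes fell from 3437 to 2754. Of the 14, C4b, C9, Serping1, C4bp, Cfi, C5ar1, Crp and Apcs passed in all 8 fits that each left out 1 library of the groups compared. C1qb, C1ra, Mbl1, Cfp, Hc and C8b lost the call in at least 1 of those fits. Absolute direction also rested on the scaling. TMM factors were 0.845 to 0.89 in WT PRA and 0.874 to 0.953 in KO PRA libraries but 1.01 to 1.16 and 1.02 to 1.08 after vehicle. With library totals alone, chosen after seeing these factors, the median of all genes moved to -0.326 and that of the members to 0.03 in WT. Only C5ar1 and Apcs were still called higher, while Mbl2, Masp1, Cd55 and Cd59a were called lower. With that scaling 660 of all 15570 genes were called higher and 6374 lower. The fitted sign of 11 of the 32 members in WT PRA against vehicle and of 18 in KO PRA against vehicle changed with it. As a share of all gene counts the 32 members took 1.26% to 1.61% in WT vehicle and 1.31% to 1.56% in WT PRA libraries, which overlap. The rises below are therefore rises relative to the bulk of the transcriptome.

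**Figure D1:**
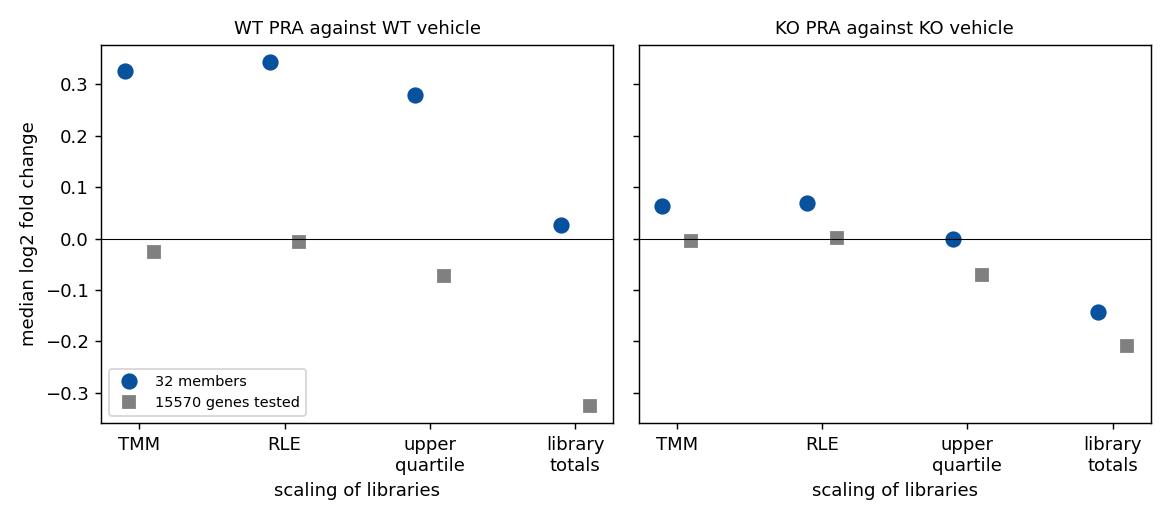
Median log2 fold change (y axis) of the 32 members (circles) and of all 15570 genes tested (squares) for PRA against vehicle in WT (left) and KO (right) livers under 4 scalings of the libraries (x axis). In WT livers both medians move down with library totals, to 0.03 and -0.326. A change of scaling shifts all genes of a comparison nearly alike, so the distance between circle and square can hardly change.

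Without regard to treatment, C3 was the most abundant member per length in every group. Dividing CPM by exon length, with exons from GENCODE vM21, a GRCm38 annotation older than the build the counts came from, put C3 at 714 CPM per kb in normal livers. Mbl2, Serping1, Cfi and C9 followed at 347, 344, 276 and 236 CPM per kb, where Mbl2 (SD of 19.1 on 378 CPM before division) and Serping1 (18.7 on 799 CPM) lay within their spread of each other. The lowest were Cfd, C3ar1 and C5ar1 at 0.671, 0.32 and 0.272 CPM per kb.

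**Figure D2:**
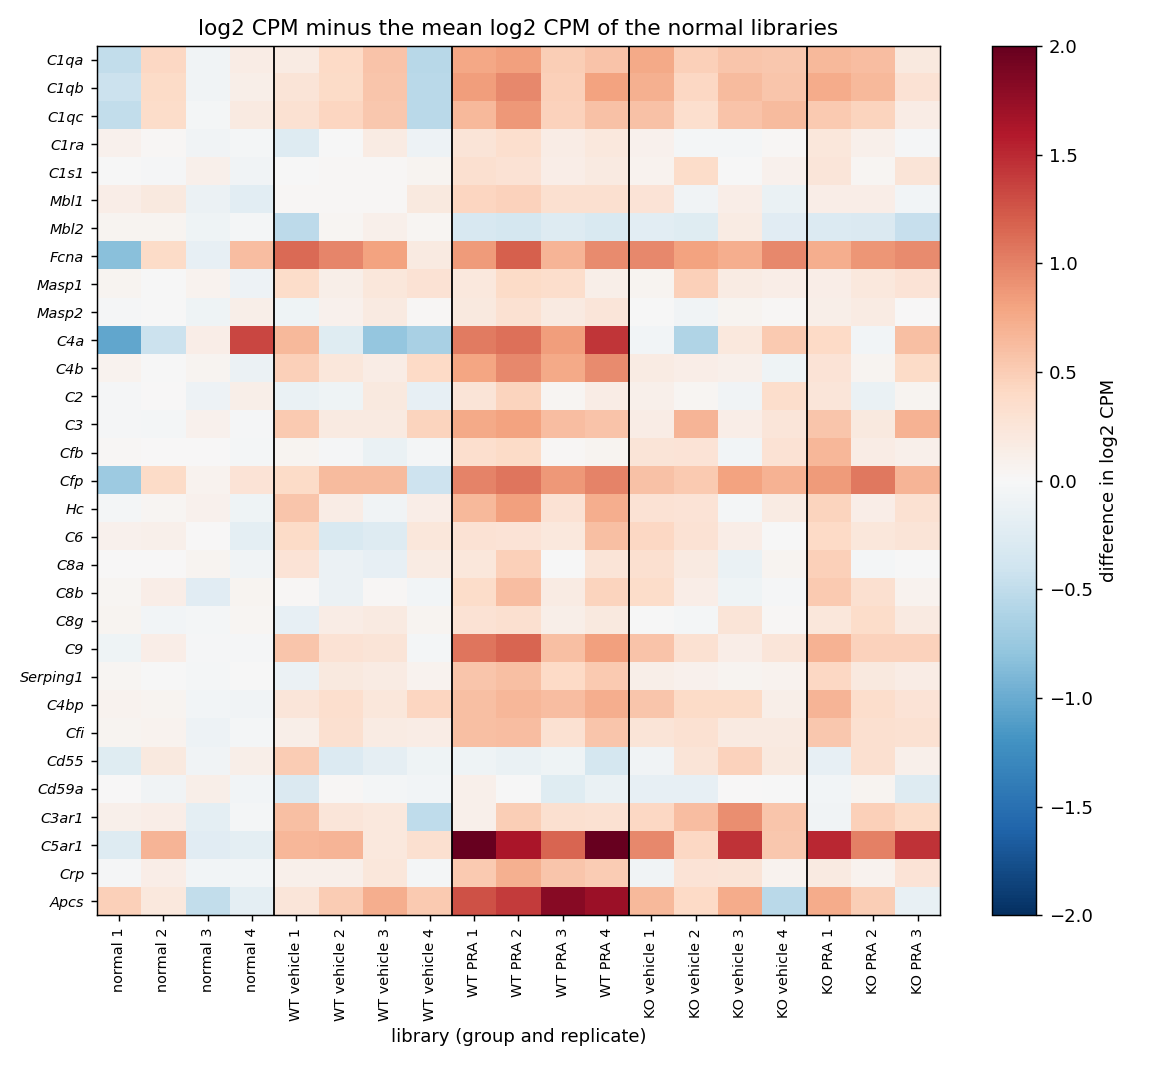
Difference in log2 CPM from the mean of the normal libraries (colour, limited to 2 in each direction) for 31 members (rows, in the order of their roles) in each of the 19 libraries (columns, black lines between groups). Cfd is left out because 1 library had no count. Apcs, C5ar1 and C4b are above the normal mean in all 4 WT PRA libraries. C1qa, C1qb and C1qc are below it in normal replicate 1, in WT vehicle replicate 4 and, by less, in normal replicate 3.

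The short pentraxins, pattern recognition proteins that bind phosphocholine and other ligands and recruit C1q, were, with C4b, the members called lower in KO than in WT livers under PRA. Apcs encodes serum amyloid P component, the main acute phase pentraxin of the mouse. Its transcript was at 54.4, 65.3, 75.6 and 65.7 CPM in the WT vehicle libraries and at 111, 121, 161 and 150.5 CPM in the WT PRA libraries. The groups did not overlap, and Apcs rose 2.08-fold (log2 fold change 1.06 ± 0.26, edgeR adjusted p = 0.00834). KO livers held 72.2, 60.6, 77 and 31.5 CPM after vehicle and 76.6, 64.5 and 41.5 CPM after PRA, overlapping groups with a log2 fold change of 0.01 ± 0.28 (adjusted p = 0.983). Every KO PRA library lay below every WT PRA library, and the difference between genotypes under PRA was -1.16 ± 0.29 on the log2 scale (edgeR adjusted p = 0.0338). That call was lost without WT PRA replicate 2, 3 or 4 and without KO PRA replicate 2 or 3, with adjusted p up to 0.141, and without a low-count filter (0.0768). The interaction was -1.05 ± 0.39 (unadjusted p = 0.0155, edgeR adjusted p = 0.383). Normal livers had 63.8, 52.8, 32.5 and 40.2 CPM.

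Crp encodes C-reactive protein, which is only a minor acute phase protein in mice. It was at 337, 336, 366 and 305 CPM in WT vehicle and 449, 512, 458 and 443 CPM in WT PRA livers, again without overlap, and rose 1.39-fold (0.47 ± 0.09, edgeR adjusted p = 0.000897). KO vehicle libraries had 298, 379, 375 and 327 CPM and KO PRA libraries 352, 329 and 378 CPM, a range lying inside that of the vehicle group (0.04 ± 0.10, adjusted p = 0.855). Under PRA the KO level was lower than the WT level in every library (-0.40 ± 0.10, edgeR adjusted p = 0.027), a call lost without WT PRA replicate 2 or 3 and without KO PRA replicate 1 or 2, with adjusted p up to 0.113, and with library totals alone (0.0781). The interaction of Crp had the smallest p of all members (-0.44 ± 0.14, unadjusted p = 0.00432) and missed the threshold after adjustment (edgeR adjusted p = 0.237). Crp was at 307, 342, 301 and 302 CPM in normal livers, so that WT vehicle and both KO groups overlapped the non-injected level.

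**Figure D3:**
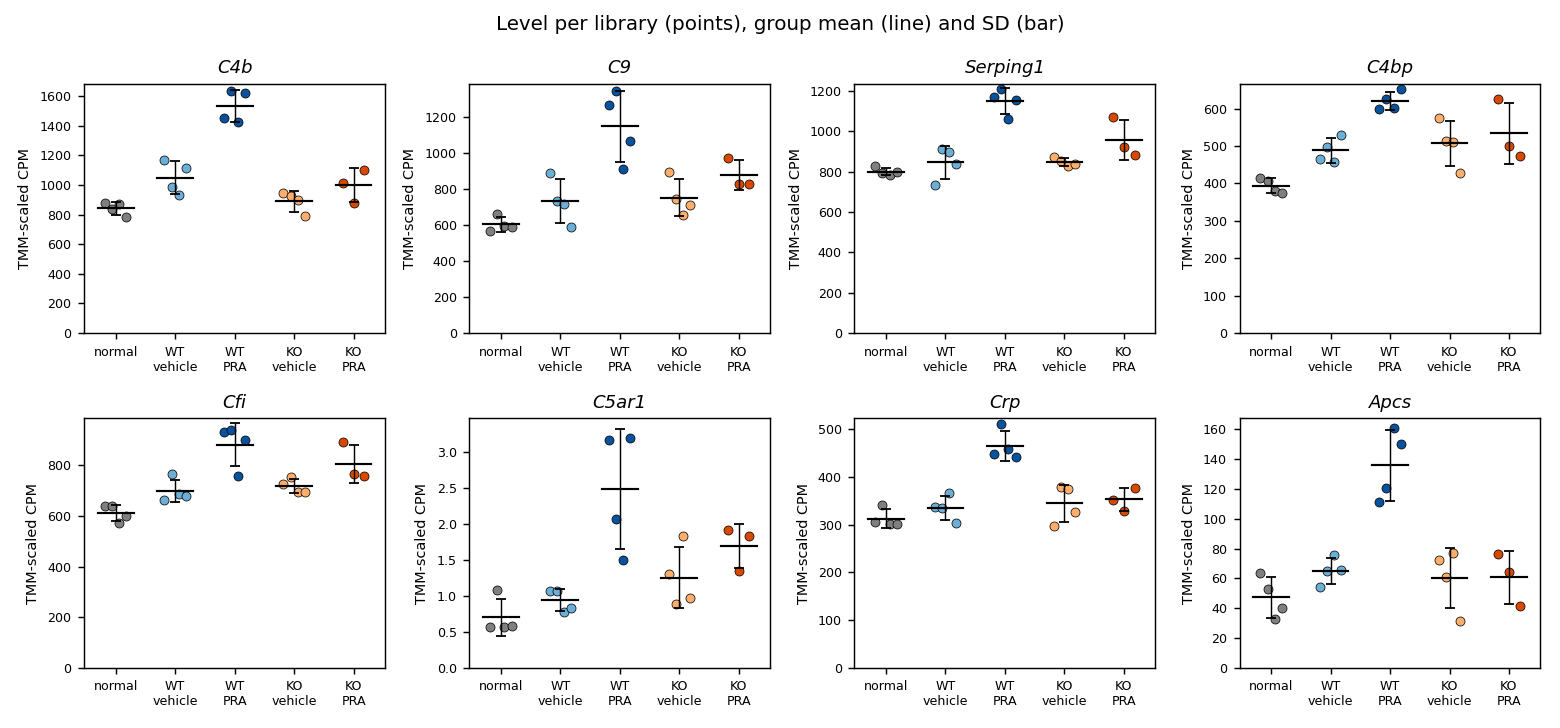
TMM-scaled CPM (y axis, from 0) in each library (points) of the 5 groups (x axis), with the group mean (line) and SD (bar), for the 8 members that passed in WT PRA against vehicle whichever library of those groups was left out. Apcs stands at 111 to 161 CPM in the WT PRA libraries and at no more than 77 CPM in any other library.

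Promoter windows, 250 bases before to 50 after the gene start, were available from RefSeq (GRCm38.p6) for 24 members, 11 of the 14 that rose among them. Entries for C1qa, Masp1, C4a, C4b, C2, Cfb, Serping1 and Cfi were not in the table used. These windows were searched on both strands for the STAT palindrome TTCNNNGAA, the IL-6 type II element CTGGGAA, the C/EBP pattern TTGCNNAA and a loose NF-kB pattern (GGG and CC with any 5 bases between). Factors that bind such sites are known to act at acute phase promoters. The STAT pattern was present in 2 of the 11 that rose, 2 of the 13 that did not pass and 8.3% of all 32851 promoters. The type II element was present in 2 of 11, 3 of 13 and 11.1%, the C/EBP pattern in 2 of 11, 2 of 13 and 10.8%, and the NF-kB pattern in 4 of 11, 7 of 13 and 50.8%. The windows of the pentraxins, of C9 and C1ra, which rose, and of C3, which did not pass, are shown because they hold different combinations of these patterns. Matches are in capitals. No match of one pattern overlapped a match of another in these 5 windows, whereas in both C3 and Crp a pair of NF-kB matches overlapped by all but 1 base. The window of Apcs (chr1:172895005-172895304, minus strand) held 1 STAT match and 2 type II elements, and that of Crp (chr1:172697806-172698105, plus strand) held 3 NF-kB matches. C9 (chr15:6445096-6445395, plus strand) held 1 C/EBP match, C1ra (chr6:124512371-124512670, plus strand) held 1 match each of STAT, type II element and C/EBP, and C3 (chr17:57228087-57228386, minus strand) held 1 C/EBP and 4 NF-kB matches.
Apcs: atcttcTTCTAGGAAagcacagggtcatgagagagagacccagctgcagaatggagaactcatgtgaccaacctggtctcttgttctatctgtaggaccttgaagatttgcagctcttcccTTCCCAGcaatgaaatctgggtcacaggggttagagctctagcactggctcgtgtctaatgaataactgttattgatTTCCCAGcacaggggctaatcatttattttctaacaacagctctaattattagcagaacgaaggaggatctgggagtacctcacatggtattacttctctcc
Crp: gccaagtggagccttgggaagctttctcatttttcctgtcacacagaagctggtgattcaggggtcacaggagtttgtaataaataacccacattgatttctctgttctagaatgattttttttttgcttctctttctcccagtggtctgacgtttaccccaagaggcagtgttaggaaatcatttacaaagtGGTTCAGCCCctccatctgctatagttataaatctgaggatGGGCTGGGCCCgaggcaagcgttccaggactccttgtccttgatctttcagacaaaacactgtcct
C9: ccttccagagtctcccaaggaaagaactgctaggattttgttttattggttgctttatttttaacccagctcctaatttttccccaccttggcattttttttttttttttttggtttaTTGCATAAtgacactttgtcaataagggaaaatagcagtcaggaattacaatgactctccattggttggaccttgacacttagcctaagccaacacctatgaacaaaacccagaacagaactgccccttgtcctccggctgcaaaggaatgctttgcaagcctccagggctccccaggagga
C1ra: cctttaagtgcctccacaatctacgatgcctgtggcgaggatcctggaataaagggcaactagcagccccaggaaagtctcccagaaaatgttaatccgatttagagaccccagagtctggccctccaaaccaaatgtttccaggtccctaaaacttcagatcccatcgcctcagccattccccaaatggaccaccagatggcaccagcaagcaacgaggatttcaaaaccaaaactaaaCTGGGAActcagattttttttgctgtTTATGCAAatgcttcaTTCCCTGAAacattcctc
C3: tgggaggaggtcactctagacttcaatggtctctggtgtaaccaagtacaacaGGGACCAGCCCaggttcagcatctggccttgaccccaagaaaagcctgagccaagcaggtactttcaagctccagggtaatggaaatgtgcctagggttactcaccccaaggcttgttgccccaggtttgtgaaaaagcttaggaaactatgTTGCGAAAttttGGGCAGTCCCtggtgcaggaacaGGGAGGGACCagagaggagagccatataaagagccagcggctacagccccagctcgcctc
Apcs and Crp shared none of the patterns in these windows. The matches are letters in a window, not shown to be sites.

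C4b encodes complement C4, which is cleaved to C4b in the classical and lectin pathways and becomes part of their C3 convertase. It was the member with the smallest adjusted p in WT PRA against vehicle. Its level was 1168, 986, 929 and 1112 CPM after vehicle and 1450.3, 1632, 1426 and 1619 CPM after PRA, groups that did not overlap (1.46-fold, 0.55 ± 0.10, edgeR adjusted p = 0.000386). In KO livers it was at 944, 927, 899 and 789 CPM after vehicle and 1012, 878 and 1103 CPM after PRA, which overlap (0.17 ± 0.11, adjusted p = 0.31). Under PRA every KO library was below every WT library (-0.62 ± 0.11, edgeR adjusted p = 0.00138), a call kept in all 7 fits without 1 library and with library totals alone. After vehicle KO minus WT was -0.24 ± 0.10 (unadjusted p = 0.0244, adjusted p = 0.72), and the interaction was -0.38 ± 0.14 (unadjusted p = 0.0152, adjusted p = 0.378). Normal livers had 880.3, 839.7, 870.0 and 780.1 CPM, below all 4 WT vehicle libraries (0.32 ± 0.10, adjusted p = 0.101).

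C4a, the nearly identical copy that encodes the sex-limited protein, was at far lower counts. Reads shared with C4b make the separate values uncertain. C4a varied widely within groups, from 19.5 to 101 CPM among normal and from 23.3 to 62.8 CPM among WT vehicle libraries, while C4b in normal livers spanned only 780.1 to 880.3 CPM. WT PRA libraries had 81.6, 85.3, 71 and 107 CPM of C4a, above all WT vehicle libraries (1.25 ± 0.44, adjusted p = 0.0558), and the call was gained in 5 of the other settings, without WT vehicle replicate 1 for example (1.66, adjusted p = 0.0181). With the counts of both copies added, the log2 fold change was 0.58 in WT (edgeR adjusted p = 0.000211) and -0.63 for KO against WT under PRA (adjusted p = 0.00114), close to C4b alone.

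C3, the substrate on which all activation routes converge, was at 5259.9, 4168, 4139.6 and 4996 CPM in WT vehicle and 6174, 6425, 5618 and 5442 CPM in WT PRA livers. The groups did not overlap, but C3 missed the threshold (0.35 ± 0.13, edgeR adjusted p = 0.0549). It passed with RLE scaling (0.0411), DESeq2 (0.0201), limma-voom (0.00521) and without WT vehicle replicate 1 (0.0268). KO livers had 4073, 5862, 4025 and 4358 CPM after vehicle and 5369, 4180.4 and 5912 CPM after PRA, with wide overlap (0.17 ± 0.14, adjusted p = 0.439). In normal livers C3 was at 3608, 3586, 3881 and 3610.2 CPM, and WT PRA was 1.61-fold higher than normal (edgeR adjusted p = 0.000388). C2, the protease partner of C4b, did not pass in WT (0.28 ± 0.11, adjusted p = 0.0766). All group means of C2 lay between 41.2 and 49.8 CPM.

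In the alternative pathway, Cfb, encoding factor B, the protease that completes the C3 convertase of that route, was at 97.2, 92, 85.2 and 90.9 CPM in WT vehicle and 118, 121, 94.4 and 96.5 CPM in WT PRA livers. It did not pass (0.24 ± 0.11, adjusted p = 0.148). KO values were 112, 113, 90.04 and 114 CPM after vehicle and 147, 103 and 100.5 CPM after PRA, and normal livers had 95.1, 93.3, 94 and 90.5 CPM. Cfb was thus among the 3 members, with Cd55 and C8g, whose fitted level under PRA was higher in KO than in WT, without passing (0.12 ± 0.12, adjusted p = 0.71). In GENCODE vM21, 79.5% of the exon bases of Cfb and 42.8% of those of C2 also belong to a readthrough gene model, Gm20547, which had at most 2 counts in any library. Reads that a counter assigns to neither gene would be missing from both, and the sources used here do not say how such reads were handled.

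Cfp encodes properdin, which stabilises the alternative convertase and comes from myeloid cells. It rose 1.53-fold in WT livers, from 17.4, 20.7, 20.9 and 10.03 CPM to 26.7, 28, 24.3 and 26.8 CPM (0.62 ± 0.21, edgeR adjusted p = 0.0403), but lost the call in 6 of 8 fits without 1 library. KO values were 20.04, 19.3, 23.3 and 21.7 CPM after vehicle and 24.2, 27.9 and 21.4 CPM after PRA (0.21 ± 0.22, adjusted p = 0.56). Normal livers had 8.14, 17.4, 14 and 16.2 CPM, lowest in replicate 1, as WT vehicle replicate 4 was lowest in its group.

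Cfd, encoding factor D or adipsin, was at 0 to 51 counts in 17 libraries and at 229 and 106 counts in the other two. Normal libraries had 1.05, 0.23, 0.324 and 0.876 CPM, WT vehicle libraries 0.0585, 0.311, 0.387 and 4.16 CPM and WT PRA libraries 3.81, 0.113, 0.749 and 0.403 CPM. KO libraries had 0.175, 0.357, 0.668 and 0 CPM after vehicle and 0.25, 0.0765 and 0.17 CPM after PRA. The high values were in WT vehicle replicate 4 and WT PRA replicate 1. In these same libraries the adipocyte genes Adipoq (0.145 and 0.288 CPM) and Plin1 (0.164 and 0.503 CPM) were also at their highest among the 19 libraries. Over the whole adipocyte list of 6 markers the summed level was 5.68 to 10.6 CPM in WT vehicle and 4.69 to 5.71 CPM in WT PRA libraries, of which Adrb3 made up most. Lep was at 0 in every library but WT PRA replicate 1 (0.144 CPM). The part of adipose RNA in the Cfd values was not tested, and no Cfd comparison passed.

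C1q, the recognition molecule of the classical pathway, is built from the chains encoded by C1qa, C1qb and C1qc. C1qa was at 48.7, 57.2, 64.7 and 29.6 CPM in WT vehicle and 74.1, 76.7, 61.4 and 64.4 CPM in WT PRA livers (0.47 ± 0.20, adjusted p = 0.102). C1qb was at 39.8, 43.7, 49.3 and 23.2 CPM in WT vehicle and 59.6, 65.5, 46.7 and 58.4 CPM in WT PRA livers and passed (1.48-fold, edgeR adjusted p = 0.0431). C1qc was at 40.6, 44.4, 47.9 and 22.7 CPM in WT vehicle and 51.7, 59.97, 45.3 and 49.7 CPM in WT PRA livers and did not pass (adjusted p = 0.139). The groups overlapped for C1qa, C1qb and C1qc, and WT vehicle replicate 4 was the lowest of its group for each. Without that library the log2 fold change of C1qb was 0.38 (adjusted p = 0.0935), and its call was lost in 6 of the 8 fits that each left out 1 library. In KO livers C1qa was at 73.9, 60.6, 63.7 and 63.3 CPM after vehicle and 68.1, 66.4 and 49.8 CPM after PRA. C1qb was at 54.9, 44.7, 51.8 and 49.1 CPM after vehicle and 56, 52.3 and 41 CPM after PRA, and C1qc at 49.8, 41.5, 49.3 and 51.3 CPM after vehicle and 47.3, 45.1 and 36.6 CPM after PRA. KO PRA and KO vehicle overlapped for all 3 chains. Normal livers had 31, 57.6, 41.5 and 48 CPM of C1qa, 25, 43.6, 31.8 and 36.2 CPM of C1qb and 23.4, 42.4, 32.3 and 37.3 CPM of C1qc, with replicate 1 lowest for each.

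Markers of Kupffer cells, the resident macrophages of the liver, were lowest in the same libraries as the C1q chains in the normal and WT vehicle groups. The summed level of 10 such markers was 303, 269, 254 and 125 CPM in the WT vehicle and 288, 367, 238 and 311 CPM in the WT PRA libraries, lowest in WT vehicle replicate 4. It was 101, 233, 167 and 204 CPM in normal libraries, lowest in replicate 1, and 270.4 to 315 and 236 to 288 CPM in KO vehicle and KO PRA libraries. None of the 10 markers passed in WT PRA against vehicle (median log2 fold change 0.41), and none was at 0 throughout a group. In WT PRA against normal, where C1qa, C1qb and C1qc were all called higher, 3 of the 10, Clec4f, Vsig4 and Cd163, were called higher too (median 0.68). C1qa and C1qc lost that call without normal replicate 1 (edgeR adjusted p = 0.0722 and 0.0738). The part of Kupffer cells in the C1q values was not tested. In bulk tissue, fewer cells of a type and less RNA per cell cannot be told apart.

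**Figure D4:**
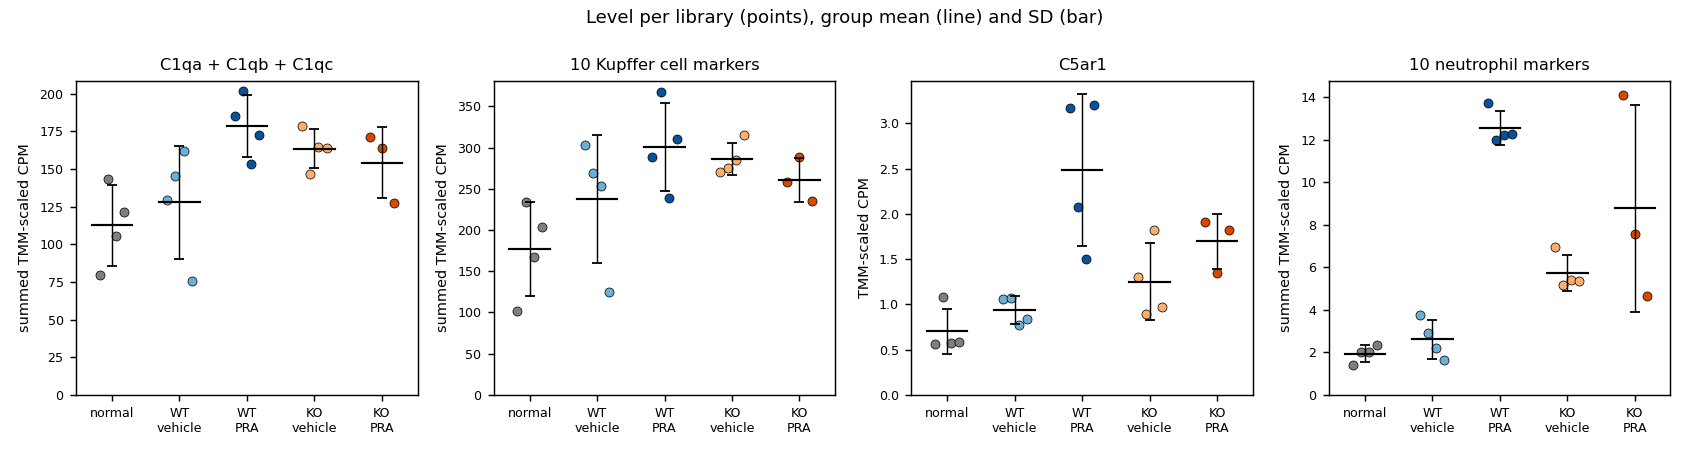
CPM (y axis, from 0) per library (points) in the 5 groups (x axis), with group mean (line) and SD (bar), for the sum of C1qa, C1qb and C1qc, the sum of 10 Kupffer cell markers, C5ar1 and the sum of 10 neutrophil markers. WT vehicle replicate 4 is the lowest of its group for the C1q sum (75.5 CPM) and for the Kupffer cell sum (125 CPM), and the WT PRA libraries lie above all WT vehicle libraries for C5ar1 and for the neutrophil sum.

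The C1 proteases come from hepatocytes. C1ra, which encodes the protease that C1q activates, was at 272, 326, 366 and 305 CPM in WT vehicle and 389.6, 413, 361 and 377 CPM in WT PRA livers and rose 1.21-fold (0.28 ± 0.09, edgeR adjusted p = 0.0304). WT vehicle replicate 3 overlapped the PRA group, and the call was lost in 6 of 8 fits without 1 library. KO values were 347, 319, 316 and 332 CPM after vehicle and 381, 351 and 319.8 CPM after PRA (0.10 ± 0.10), and normal livers had 346, 330.2, 310.4 and 318 CPM. C1s1, the protease that cleaves C4 and C2, was at 432 ± 6.73 CPM after vehicle and 498 ± 29.6 CPM after PRA in WT livers (SD, n = 4 each) and missed the threshold (0.20 ± 0.09, edgeR adjusted p = 0.1).

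The mannose-binding lectins recognise sugar arrays on microbes. Mbl1 was at 149, 148, 149 and 167 CPM in WT vehicle and 196, 201, 182 and 183 CPM in WT PRA livers, without overlap, and rose 1.24-fold (0.31 ± 0.10, edgeR adjusted p = 0.0302; the call held in 4 of 8 fits without 1 library). In KO livers it was at 176, 139.5, 160.4 and 134 CPM after vehicle and 159, 159 and 140.1 CPM after PRA. All KO PRA libraries were below all WT PRA libraries, a difference that did not pass (-0.31 ± 0.11, adjusted p = 0.126). Mbl2 went the other way in value. It was at 262, 388, 406 and 389.6 CPM in WT vehicle and 303, 296, 316 and 305 CPM in WT PRA livers and did not pass (-0.24 ± 0.12, edgeR adjusted p = 0.146), but WT vehicle replicate 1 was far below the rest of its group, and without it the log2 fold change was -0.36 (adjusted p = 0.00915). By limma-voom, too, Mbl2 was called lower in WT PRA (-0.33, adjusted p = 0.0121). KO livers had 325, 319.5, 424 and 321 CPM after vehicle and 314, 309 and 274 CPM after PRA, lower without overlap but not past the threshold (-0.22 ± 0.13, adjusted p = 0.266). Normal livers had 161, 166, 135 and 126 CPM of Mbl1 and 394, 393, 356 and 367 CPM of Mbl2. Whether the responses of the lectins differ from each other was not tested.

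The other lectin pathway members did not pass in either genotype. Masp1, a protease gene that also encodes other splice forms, was at 142 ± 10.1 and 143 ± 12 CPM in WT vehicle and WT PRA livers, and Masp2, the protease that cleaves C4, at 263 ± 19.5 and 298 ± 10.9 CPM. In GENCODE vM21 54.9% of the exon bases of Masp2 lie opposite exons of Tardbp, and without a stated strand setting reads there cannot be assigned with certainty. Fcna, encoding ficolin A, a macrophage lectin, was at 22.8 ± 9.26 CPM in normal, 37.5 ± 9.81 CPM in WT vehicle and 40.6 ± 6.24 CPM in WT PRA livers. It was higher in WT PRA than in normal livers (log2 fold change 0.83 ± 0.24, edgeR adjusted p = 0.0169), while WT vehicle against normal missed the threshold (0.72 ± 0.24, adjusted p = 0.148) and passed in DESeq2 (0.0411). The former call was lost without normal replicate 3 (0.0503), without WT PRA replicate 2 (0.0532) and with only the groups compared (0.0705). Within their groups, Fcna was lowest in normal replicate 1 (11.9 CPM) and WT vehicle replicate 4 (24 CPM), as were the Kupffer cell markers. The part of Kupffer cells in the Fcna values was not tested.

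In the terminal pathway 3 of 6 members, Hc, C8b and C9, were called higher in WT PRA than vehicle, against 9.74% of all genes. C9, whose protein polymerises into the ring of the membrane pore, had the largest log2 fold change of the 3. It was at 890.0, 736, 720.2 and 588 CPM after vehicle and 1269, 1348, 911 and 1068 CPM after PRA, groups that did not overlap (1.57-fold, 0.65 ± 0.13, edgeR adjusted p = 0.00129). KO livers had 896, 747, 657 and 714 CPM after vehicle and 975, 828 and 831 CPM after PRA, which overlap (0.22 ± 0.14, adjusted p = 0.315). C9 in normal livers was at 569.5, 662, 594 and 590.0 CPM, and the interaction was -0.43 ± 0.19 (unadjusted p = 0.0395, adjusted p = 0.516). Under PRA, KO minus WT was -0.39 ± 0.14 on the log2 scale and did not pass (adjusted p = 0.152).

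Hc encodes C5, the source of C5a and of the component that starts the pore. It was at 619, 465, 398 and 461 CPM in WT vehicle and 661, 741, 514 and 699 CPM in WT PRA livers, with WT PRA replicate 3 inside the vehicle range (1.35-fold, edgeR adjusted p = 0.0201; past the threshold in 3 of 8 fits without 1 library). KO livers had 512, 509, 407 and 473 CPM after vehicle and 571, 462 and 521 CPM after PRA (0.12 ± 0.14), and normal livers 411, 429.8, 447 and 395 CPM. C8b, encoding the beta chain of C8, was at 522, 474, 523 and 496 CPM in WT vehicle and 663, 789, 578 and 702 CPM in WT PRA livers, without overlap (1.35-fold, edgeR adjusted p = 0.0117, and 0.0525 without WT PRA replicate 2). KO values of C8b were 665, 565, 481 and 506 CPM after vehicle and 740.2, 637 and 537 CPM after PRA (0.20 ± 0.13), and normal values 528, 560.4, 438 and 534 CPM. The other chains of C8, C8a (0.20 ± 0.13, adjusted p = 0.307) and C8g (0.17 ± 0.09, adjusted p = 0.179), and C6 (0.31 ± 0.14, adjusted p = 0.108) did not pass in WT. C6 did pass without WT vehicle replicate 1 (0.46, adjusted p = 0.0171).

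All 3 secreted regulators of the list were called higher in WT PRA than vehicle, against 9.74% of all genes. Serping1, encoding C1 inhibitor, which blocks C1r, C1s and the lectin proteases, was at 733, 913, 897 and 836 CPM in WT vehicle and 1171, 1207, 1058 and 1153 CPM in WT PRA livers (1.36-fold, 0.44 ± 0.09, edgeR adjusted p = 0.000877). The groups did not overlap. KO PRA libraries, at 1068, 919.5 and 883 CPM, were also all above the KO vehicle libraries, at 869.6, 851, 829.5 and 836 CPM, but by less and without passing (0.18 ± 0.09, adjusted p = 0.212). The difference between these responses had an unadjusted p of 0.0494 and an adjusted p of 0.557. Normal livers had 825, 793, 780.4 and 799 CPM.

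C4bp, encoding C4b-binding protein, a cofactor that limits C4b, was at 466, 498, 458 and 530.4 CPM in WT vehicle and 599, 624, 602 and 653 CPM in WT PRA livers, without overlap (1.27-fold, edgeR adjusted p = 0.0163). It was at 575, 513, 511 and 428 CPM in KO vehicle and 626, 501 and 473 CPM in KO PRA livers (0.07 ± 0.11) and at 414, 407, 379 and 373 CPM in normal livers, below every other group. Cfi encodes factor I, the protease that inactivates C3b and C4b with its cofactors. Cfi was at 664, 764, 689 and 679 CPM in WT vehicle and 931, 940.1, 759 and 898 CPM in WT PRA livers, where WT PRA replicate 3 fell just inside the vehicle range (1.26-fold, edgeR adjusted p = 0.00888). KO libraries had 728, 753, 694 and 696 CPM after vehicle and 891, 767 and 758 CPM after PRA, here narrowly without overlap but without passing (0.17 ± 0.10, adjusted p = 0.251), and normal livers had 639, 639.9, 573 and 598 CPM.

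Neither membrane regulator passed. Cd55, encoding decay-accelerating factor, was at 9.5 ± 2.5 CPM in WT vehicle and 8.33 ± 0.689 CPM in WT PRA livers (-0.19 ± 0.16, adjusted p = 0.408), and Cd59a, which blocks pore assembly, at 42.3 ± 3.88 and 42.9 ± 4.34 CPM (0.02 ± 0.09, adjusted p = 0.896). In KO livers they did not pass either. With library totals alone both were called lower in WT PRA than vehicle (-0.51 and -0.27), as were 6374 of all 15570 genes.

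The anaphylatoxin receptors were, with Cfd, the least abundant members. C5ar1, the C5a receptor of neutrophils and macrophages, was at 1.06, 1.07, 0.775 and 0.836 CPM in WT vehicle and 3.16, 2.07, 1.5 and 3.2 CPM in WT PRA livers. The groups did not overlap, and its rise was the largest called among the members (2.63-fold, 1.39 ± 0.28, edgeR adjusted p = 0.00106). KO livers had 1.31, 0.893, 1.83 and 0.972 CPM after vehicle and 1.91, 1.35 and 1.83 CPM after PRA (0.45 ± 0.30, adjusted p = 0.33), and normal livers 0.565, 1.08, 0.572 and 0.584 CPM. Neutrophil markers were higher in the same group. Their sum over 10 genes was 1.38 to 2.34 CPM in normal, 1.62 to 3.73 CPM in WT vehicle and 12 to 13.7 CPM in WT PRA libraries, and 6 of the 7 tested rose in WT. In KO libraries the sum was 5.16 to 6.96 CPM after vehicle and 4.63 to 14.1 CPM after PRA, and 2 of the 7 rose. Ly6g was at 0 in all normal and all WT vehicle libraries, and Camp in all KO PRA libraries. The part of neutrophils in the C5ar1 values was not tested. C3ar1, the C3a receptor, was at 2.08, 1.62, 1.59 and 0.963 CPM in WT vehicle and 1.47, 1.92, 1.71 and 1.7 CPM in WT PRA livers. KO livers had 1.83, 2.11, 2.61 and 2.01 CPM after vehicle and 1.3, 1.91 and 1.78 CPM after PRA, and normal livers 1.46, 1.5, 1.19 and 1.34 CPM. It passed in no comparison (0.12 ± 0.20 in WT, adjusted p = 0.718, and -0.37 ± 0.22 in KO, adjusted p = 0.276).

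**Figure D5:**
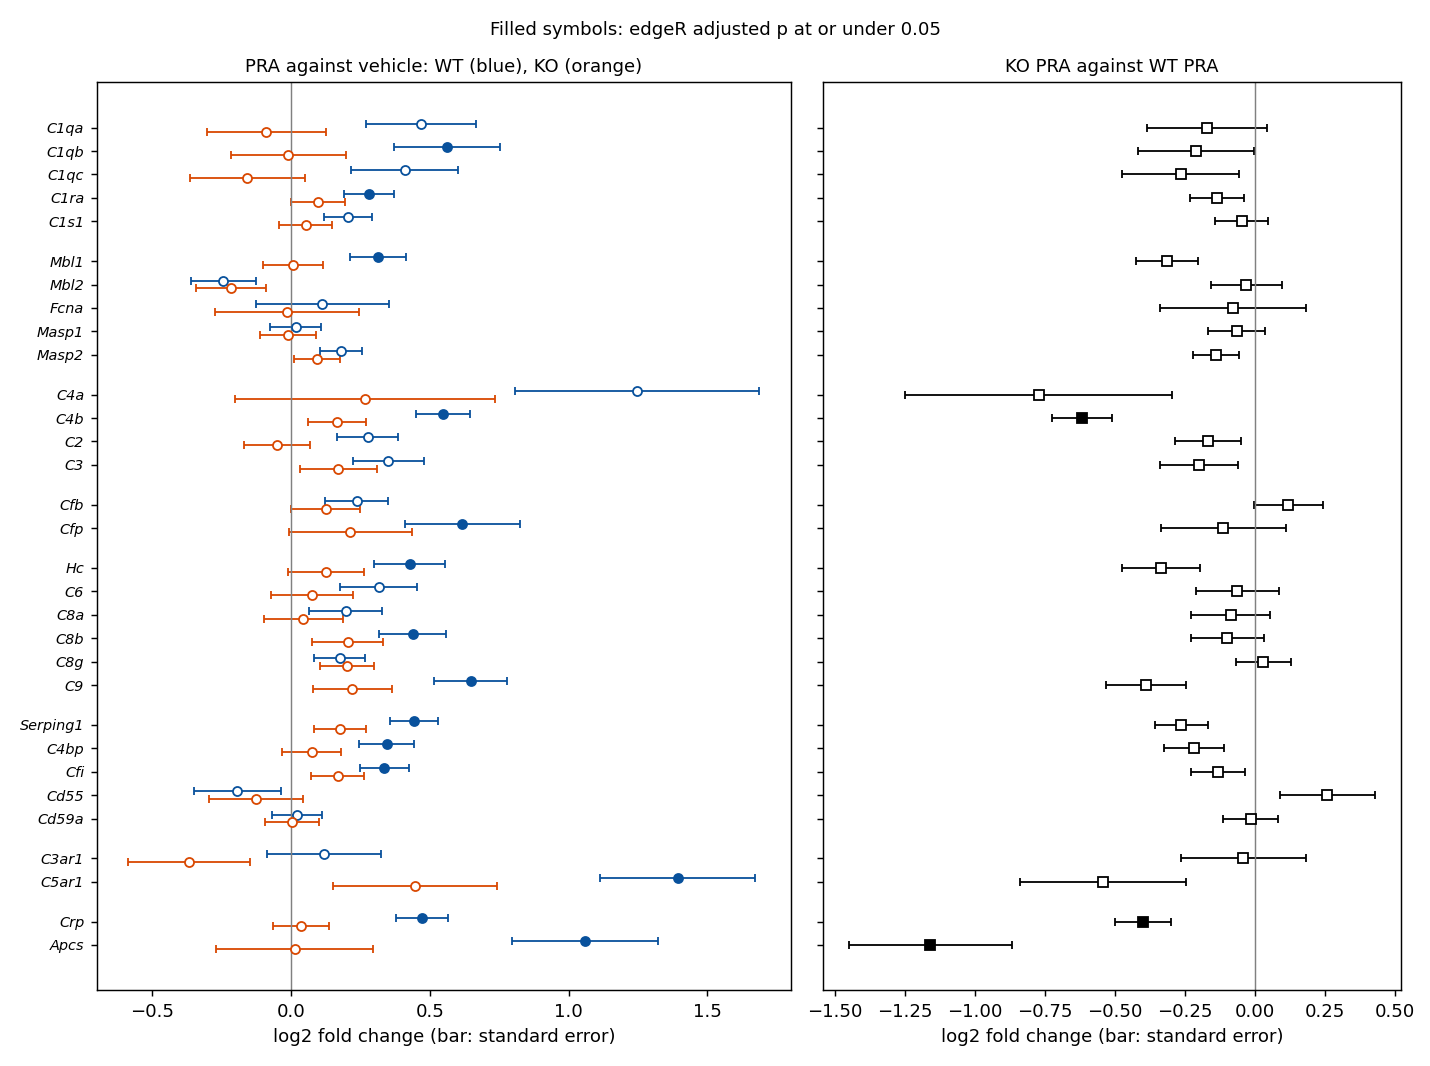
Log2 fold change with its standard error (x axis) for 31 members (y axis, in the order of their roles; Cfd left out for its standard error above 1). The left panel shows PRA against vehicle in WT (blue) and KO (orange) livers and the right panel KO against WT under PRA, with filled symbols for edgeR adjusted p at or under 0.05. In the left panel 14 WT and no KO symbols are filled, and in the right panel those of C4b, Crp and Apcs.

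WT PRA was higher than normal for 19 of 32 members and lower for none, where 13.5% and 14.9% of all genes were called higher and lower, 28.4% in all, with a median log2 fold change of 0.52 against -0.02 for all genes. Without overlap 23 were higher and 1, Mbl2, lower, against 16.7% and 16.9% of all genes. With library totals alone the 19 became 6 higher and 3 lower, where 811 of all 15570 genes were called higher and 7993 lower. The 19 held 13 of the 14 that rose against vehicle, all but C1ra, and added C1qa, C1qc, Fcna, Masp1, Masp2 and C3. Of those added, C3 passed in all 8 fits that each left out 1 library. Fcna passed in 6 of these fits, C1qc in 5, C1qa in 4, Masp2 in 3 and Masp1 in 2. Of the 13, C8b passed in 6 and the rest in all 8. In this comparison 3 of 10 Kupffer cell markers (median log2 fold change 0.68) and 4 of 6 hepatocyte markers (median 0.37) were also called higher, and their part in the members' values was not tested. Apcs was 2.87-fold, C9 1.9-fold, C4b 1.82-fold and Crp 1.49-fold higher than normal (edgeR adjusted p = 0.000433, 2.28e-05, 1.43e-06 and 8.98e-05). The comparison with normal includes the injection itself. WT vehicle against normal called no member by edgeR, where 2.00% of all genes were called (1.18% higher and 0.822% lower). At unadjusted p under 0.05, where the share of all genes was not computed, there were 7 members, all 7 higher after vehicle. They were Fcna, Masp1, C4b, C3, C9, C4bp and Cfi. DESeq2 called Fcna and C4b, and limma-voom none. Masp1, C4b, C3, C4bp and Cfi, 5 members, were higher without overlap and none lower, against 4.74% and 3.78% of all genes. C3, for example, lay at 3671 ± 140.0 CPM in normal and 4641 ± 573 CPM in WT vehicle livers (SD, n = 4 each), without overlap. KO vehicle against WT vehicle called no member either, by edgeR or DESeq2 or limma-voom, where edgeR called 0.0706% of all genes (0.0514% higher and 0.0193% lower). By edgeR 2 members, C4b and C3ar1, had an unadjusted p under 0.05, again without a share of all genes at that p. In no member were these groups without overlap, which held for 1.54% of all genes in the higher and 1.14% in the lower direction.

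Other genes of the complement system, a list of 27 that were not members, were tested in the same fit. Of 22 that passed the low-count filter, 5 were higher and 3 lower in WT PRA than vehicle, against the 9.74% and 12.3% of all genes. Clu, encoding clusterin, and Vtn, encoding vitronectin, both of which keep the terminal complex from inserting into membranes, rose 1.57-fold and 1.56-fold, to 2884 ± 287 and 4569.9 ± 411 CPM (SD, n = 4, edgeR adjusted p = 8.11e-05 and 8.82e-05). In KO livers they did not pass (0.26 ± 0.11 and 0.22 ± 0.11, adjusted p = 0.114 and 0.165). Cd93, encoding a receptor of endothelial and myeloid cells, rose in both genotypes, 1.96-fold in WT (edgeR adjusted p = 0.000199) and 2.04-fold in KO (edgeR adjusted p = 0.000305). It was the only gene of either list called for PRA against vehicle in KO livers, where 16.3% of all genes were called. Itgam, a chain of complement receptor 3 on neutrophils and macrophages, rose 2.34-fold in WT to 0.902 ± 0.164 CPM (edgeR adjusted p = 0.00294). The summed level of 8 monocyte markers, Itgam among them, was 5.67 to 7.42 CPM in WT vehicle and 8.3 to 12.1 CPM in WT PRA libraries with 2 of 8 called higher. Plac8 made up most of this sum, and only Plac8 and Itgam of the 8 were without overlap between these groups. The neutrophil sum was 1.62 to 3.73 CPM in WT vehicle and 12 to 13.7 CPM in WT PRA libraries. The part of either cell type in the Itgam values was not tested. Colec11, encoding a collectin that also marks stellate cells, fell by 0.51 on the log2 scale (adjusted p = 0.00783), and C5ar2, the other C5a receptor, by 0.74 (adjusted p = 0.0128). The sum of 6 stellate cell markers, Colec11 among them, was 169 to 193 CPM in WT vehicle and 104 to 156 CPM in WT PRA libraries with 4 of 6 called lower, and its part in the Colec11 value was not tested. No gene of this list passed in the interaction or in KO against WT under PRA by edgeR, where 4 and 3 had an unadjusted p under 0.05, and Vtn came closest in the latter (-0.38 ± 0.11, adjusted p = 0.0504). After vehicle Susd4, an inhibitor of the classical convertase named here after its value was seen, was 1.77-fold higher in KO than in WT livers (edgeR adjusted p = 0.0113).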

How the data were processed

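The values the authors deposited are raw read counts per Ensembl gene ID. HISAT2 2.2.1, SAMtools 1.13, HTSeq 0.11.3 and GRCm39 appear in the submitters' processing notes, whereas annotation release and strandedness were not given in the sources used here. Between the series table and the 19 single-library files 0 gene values differed, and the summary lines of the latter, 28.29% to 33.05% of a library, stayed out of library sizes and tests. Of all counts, 99.58% lay in IDs with a symbol in the gene name table.

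Counts were fitted with edgeR 4.0.16 in R 4.3.3 (filterByExpr on group, TMM, robust quasi-likelihood, 1 mean per group, no covariate, 7 contrasts, Benjamini-Hochberg over all genes tested in a contrast). The fit was tested on simulated counts for WT PRA against vehicle, with changes put into genes drawn at random. It recovered 47.8% of 1.5-fold, 62.7% of 2-fold and 92.4% of 4-fold changes. Changes were put into 67, 67 and 66 genes at these sizes, of 15332 tested, whereas 22.1% of all genes were called in the data. The genes drawn were not matched to the members in abundance or spread. These shares therefore do not give the power for the members, and a member without a call is not shown to be unchanged. The KO comparison, with 3 PRA libraries, and the interaction were not simulated. DESeq2 1.42.0 and limma 3.58.1 served as alternatives, with other scalings, filters, a replicate block, C4a and C4b summed, and each library left out. The members, lists and tests were chosen with earlier results of these data known. Values in every library are printed for members past the threshold in WT PRA against vehicle, in the interaction or in KO against WT under PRA and for 17 listed members, and other complement genes are named by smallest adjusted p, 6 at most. A count of 0 allows up to 3 counts, 0.0405 to 0.0935 CPM of the library totals, for counting error only. Replicate libraries differed by more than counting noise (chi-square over its degrees of freedom at least 22.74).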

Additional observations from a re-analysis of the deposited data

Results flagged for a closer look

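Of 128 sets of 4 libraries (32 members in the 4 groups of that size), 8 held a library whose gap to the next, divided by the range of the group, was above Dixon's 95% critical value, where chance gives about 1 in 20. In WT vehicle libraries Mbl1 was highest in replicate 4 (167 CPM), Mbl2 was lowest in replicate 1 (262 CPM) and Cfd was highest in replicate 4 (4.16 CPM). In KO vehicle replicate 3, Mbl2 was high (424 CPM) and Cfb low (90.04 CPM). Among normal libraries C3 was high in replicate 3 (3881 CPM), and C5ar1 (1.08 CPM) and Crp (342 CPM) were high in replicate 2. No member's response differed between genotypes past the threshold.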

How the results depend on the processing

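With library totals alone in place of TMM, an alternative chosen after seeing the data, members called numbered 6 (2 higher, 4 lower) for WT PRA against vehicle, 1 (Mbl2, lower) for KO PRA against vehicle and 9 (6 higher, 3 lower) for WT PRA against normal, in place of 14, 0 and 19. In the same order, 660, 588 and 811 of all 15570 genes were called higher and 6374, 3229 and 7993 lower. The median of all genes moved by more than 0.1 on the log2 scale in these comparisons. Under library totals the fitted sign changed for 11 of 32 members in WT PRA against vehicle, 18 in KO PRA against vehicle and 11 in WT PRA against normal. Those called with either scaling were C1ra (-0.0130), Masp1 (-0.29) and Cd59a (-0.27) in WT PRA against vehicle and Mbl1 (-0.0062), Masp1 (-0.11) and Masp2 (-0.15) in WT PRA against normal. The share of higher among all called genes in WT PRA against vehicle was 44.1% with TMM, 34% with upper quartile scaling and 9.38% with library totals, and calls over all genes there went from 3437 to 7034. In WT and KO PRA against vehicle the members' median lay above that of all genes under all 4 scalings. A change of scaling shifts all genes of a comparison nearly alike, so this order could hardly change and tests nothing.

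DESeq2 called 2 members in WT vehicle against normal in place of 0. It called 176 of all genes in the interaction against 74 by edgeR, 927 against 591 in KO PRA against WT PRA, 56 against 11 in KO vehicle against WT vehicle and 655 against 311 in WT vehicle against normal. The causes were not tested. Leaving out each library gave 8 to 15 members for WT PRA against vehicle, 1 to 3 for KO PRA against WT PRA (1 without WT PRA replicate 2, WT PRA replicate 3 or KO PRA replicate 2) and 13 to 19 for WT PRA against normal, and 0 in every other comparison. Over all genes those fits called 2754 to 3414, 314 to 489 and 3629 to 3928 in the same order, in place of 3437, 591 and 4421. For the other settings (RLE and upper quartile scaling, no filter, 1 CPM in 3 libraries, limma-voom, only the groups compared) the counts of members stayed within 1.5 times of those reported. With the replicate number as a replicate block, 12 members were called in WT PRA against vehicle, C1qb and C1ra being lost, and the other counts were the same. Correlations of same-numbered deviations ran from -0.253 to 0.193 over 36 pairs, 9 of them over 0.1. Those of differently numbered libraries ran from -0.225 to 0.269 over 108 pairs, 16 of them over 0.1. No label says whether the numbers pair libraries, and these correlations cannot decide it. Counting precision was lowest for Cfd, C3ar1 and C5ar1, the members with the fewest counts.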
